A study of Homo sapiens with 12 samples.

Results

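Drug, bile acid and xenobiotic genes of a liver cell line were followed across copper exposure and loss of the copper exporter ATP7B. The set holds 10 genes, taken by symbol from the 47634 Ensembl genes counted in every library: NR1I2, NR1I3, NR1H4, CYP3A5, CYP27A1, CYP7A1, SULT2A1, GSTA1, CES1 and ABCB11. The cells were HepG2, a human line derived from a liver tumour. The 4 groups were ATP7B knockout (KO) cells given copper for 24 h, untreated KO cells, wild type cells given copper for 24 h, and untreated wild type cells, with 3 libraries each. All groups share the cancer-derived HepG2 background. The labels name 1 KO line, give no copper dose and do not say where or how ATP7B was edited, and call the replicates biological without saying that they came from separate cultures, so p-values measure the spread between these libraries.

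Hepatocytes sense drugs, steroids and bile acids with nuclear receptors that bind DNA as partners of the retinoid X receptor RXRA. PXR (gene NR1I2) and CAR (gene NR1I3) switch on phase I enzymes, which oxidise or hydrolyse foreign compounds, phase II enzymes, which attach sulfate, glutathione or sugar acids, and efflux pumps. FXR (gene NR1H4) is the bile acid receptor. When bile acids accumulate it raises the export pump BSEP (gene ABCB11) and, through the repressor SHP (gene NR0B2) and the FGF19 receptor FGFR4 with its partner KLB, lowers bile acid synthesis by CYP7A1. HepG2 cells are known for low levels of many drug-metabolising P450 enzymes compared with hepatocytes.

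Values are 3′ tag counts per library, given as CPM, the count divided by the library total and scaled to a common depth. The kit makes about 1 fragment per transcript, so tags do not grow with transcript length and CPM of different genes can be set side by side. Library totals ran from 976658 counts in untreated KO replicate 2 to 3829151 in untreated wild type replicate 2. A floor of 3 counts therefore equalled 3.07 CPM in the shallowest library and 0.783 CPM in the deepest. ATP7B itself was counted in every library, at 3.92 to 6.77 CPM in copper-treated KO, 2.05 to 11.6 CPM in untreated KO, 3.87 to 5.34 CPM in copper-treated wild type and 12.4 to 13.1 CPM in untreated wild type cells, and 3′ tags outside the edit check nothing. The mitochondrial share of counts was 8.34% to 9.46% in copper-treated KO, 5.82% to 8.85% in untreated KO, 6.58% to 8.59% in copper-treated wild type and 2.97% to 3.80% in untreated wild type cells. It was thus lowest in the group that serves both the wild type copper comparison and the untreated comparison of the lines, and its part in their results was not tested. A principal component analysis of log2 CPM set 3 libraries apart: its leading component (44.2% of the variance) put untreated KO replicates 1 and 2 and copper-treated wild type replicate 1 at 111.4, 120.4 and 23.9 and the other 9 below 0. These 3 libraries also had the lowest totals, at 1443372, 976658 and 1873703 counts in the same order. The next lowest was copper-treated wild type replicate 2 at 2295050. Leaving them out thus also leaves out the shallowest libraries, and the part of depth was not tested. Results that rest on these 3 libraries, called below the libraries that stood apart, are also given without them. Untreated KO replicate 3 is then the lone sample of its group and is assumed to vary like the other groups, although correlations of log2 CPM ran lowest within untreated KO (0.798 to 0.927, against 0.979 to 0.980 within copper-treated KO).

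The 10 summed markers of hepatocyte-derived lines were all counted, at 3762 to 3978 CPM in copper-treated KO, 8765 to 10491 CPM in untreated KO, 9626 to 10406 CPM in copper-treated wild type and 20130 to 20828 CPM in untreated wild type cells. This sum moved with several results below, and its part in them was not tested. Its markers did not all move together. Between untreated KO and untreated wild type cells APOB (means 3061 and 1896 CPM), SERPINA1 (680 and 541) and FGB (264 and 213) were higher in KO. The other markers on the list were lower, with GPC3 at 32.4 and 1806 CPM. Among markers of other cells, the endothelial sum stayed at or under 10.2 CPM with KDR at 0 in all libraries.

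Of the 10 genes, 7 passed the filter on low counts and were tested with edgeR's quasi-likelihood test. NR1I3, CYP7A1 and ABCB11 did not pass. With copper in wild type cells 3 of the 7 rose (NR1I2, CYP3A5, CES1) and 2 fell (SULT2A1, NR1H4), at an adjusted p under 0.05 over all 11051 genes tested. In the same comparison 14.9% of all tested genes were called, 8.23% higher and 6.68% lower. With copper in KO cells none of the 7 rose and 3 fell (SULT2A1, NR1H4, GSTA1), where 33.7% of all tested genes were called, 15.2% higher and 18.5% lower. Fitted with only the groups compared, copper called 3044 genes in wild type and 1853 in KO cells. The shares of 14.9% and 33.7% therefore do not rank the lines. Between the untreated lines 4 of the 7 were higher in KO cells (NR1I2, CYP3A5, CES1, GSTA1) and none was lower, where 31.9% of all tested genes were called, 17.9% higher and 14.0% lower. At an unadjusted p under 0.05 still 0 of the 7 rose with copper in KO cells, and 1, CYP27A1, was lower in untreated KO cells. DESeq2 called 0 in either case, while CYP27A1 was called lower in untreated KO cells in 3 of 22 alternative settings. Between the copper-treated lines only CYP27A1 was called among the 7, lower in KO cells, where 13.8% were called, 5.77% higher and 8.03% lower. The median log2 fold change of the 7 genes was -0.32 with copper in wild type, -1.68 with copper in KO, 2.62 between the untreated lines (KO over wild type) and -0.72 between the copper-treated lines. Over all tested genes the medians were -0.03, 0.01, -0.02 and 0.05. Copper in KO cells and KO against wild type untreated share the untreated KO libraries, so high values there enter both comparisons with opposite sign. The filter on low counts also keeps genes that are high in a single group. In untreated wild type cells NR1I2, CYP3A5, CES1 and GSTA1 averaged 1.69, 1.51, 3.16 and 2.35 CPM, and they passed through other groups. GSTA1 passed through untreated KO cells alone (27.2 CPM). The counts and medians of the 7 genes are therefore not independent of the filter.

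**Figure D1:**
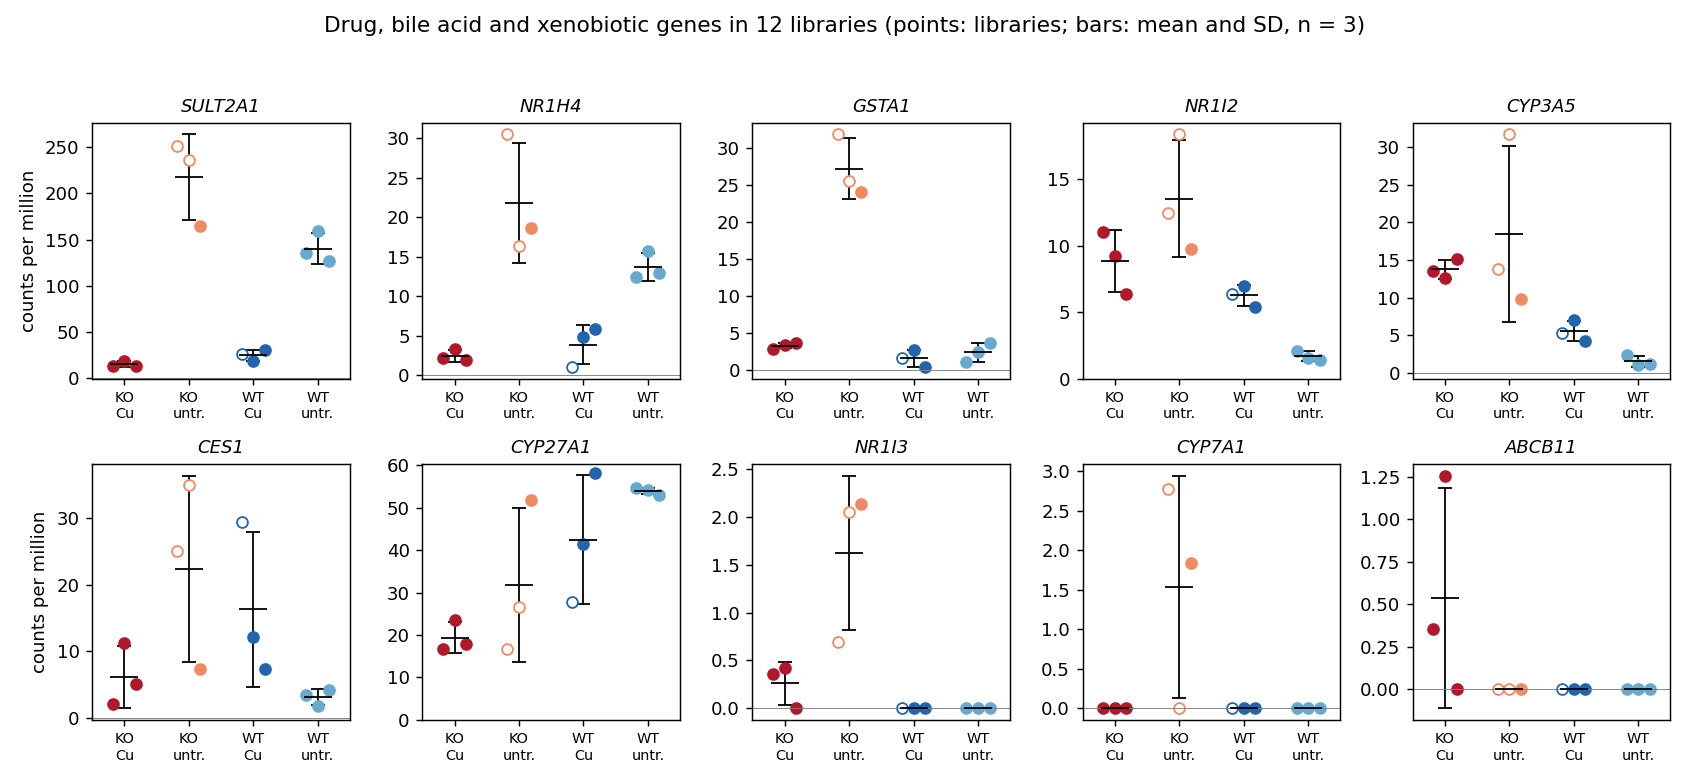
CPM of the 10 genes in each library, 1 panel per gene with its own linear axis. Groups run from copper-treated KO and untreated KO to copper-treated and untreated wild type, bars are group means over 3 libraries, and open circles are the 3 libraries that stood apart. SULT2A1 was at most 30.2 CPM in the copper-treated libraries and at least 127 CPM in the untreated ones.

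**Figure D2:**
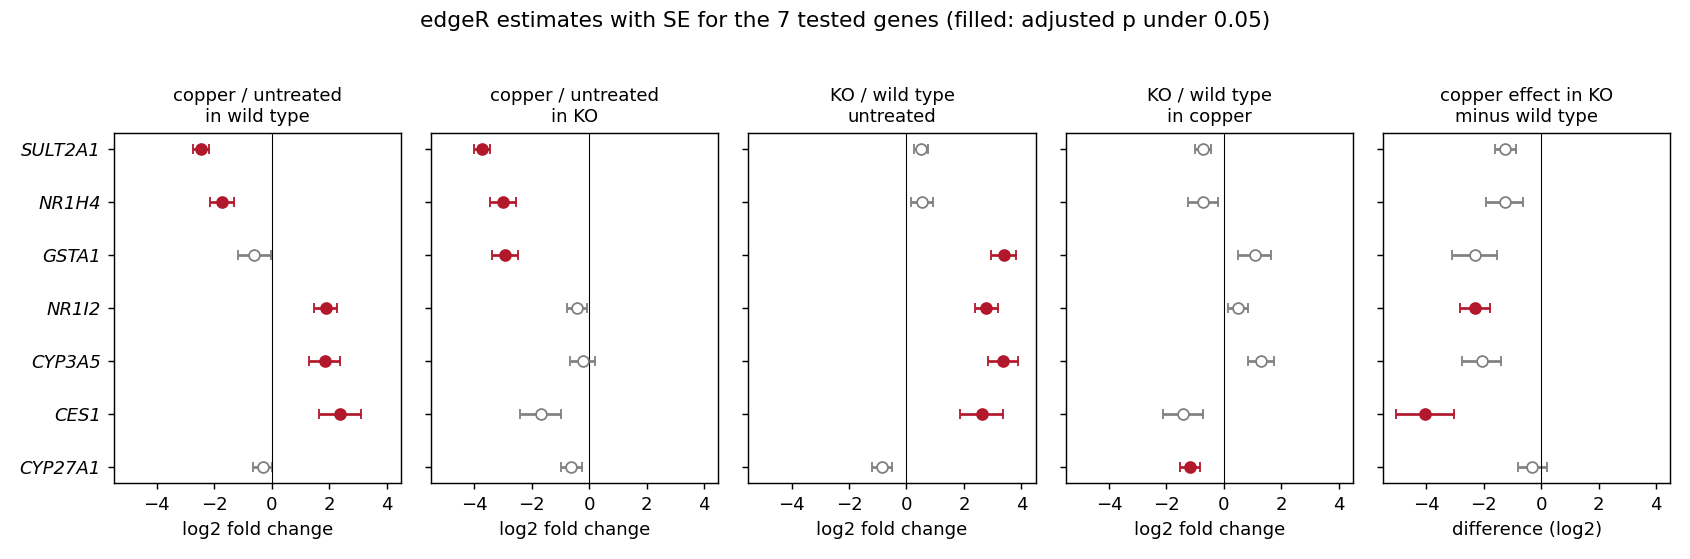
Log2 fold change of the 7 tested genes in the 5 comparisons, with lines for the SE on either side and filled points for an adjusted p under 0.05. GSTA1, CYP3A5, NR1I2 and CES1 lie right of 0 for KO against wild type untreated, and SULT2A1 and NR1H4 lie left of 0 for copper in both lines.

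SULT2A1 (ENSG00000105398.3) encodes the sulfotransferase that sulfates bile acids and steroids such as dehydroepiandrosterone, and it was the most abundant member in untreated cells. It was at 13.5, 18.8 and 13.5 CPM in copper-treated KO cells and at 251, 237 and 165 CPM in untreated KO cells. In wild type cells it was at 26.2, 18.3 and 30.2 CPM with copper and at 135.5, 159 and 127 CPM untreated. Copper-treated and untreated libraries did not overlap in either line. SULT2A1 fell 13.2-fold with copper in KO cells (log2 fold change -3.72 ± 0.28 SE, adjusted p = 7.7e-06, lower in 3 of 3 libraries) and 5.52-fold in wild type cells (-2.46 ± 0.27, adjusted p = 0.00019, lower in 3 of 3). The summed hepatocyte markers were also lower with copper in both lines. In bulk samples fewer cells of a type and less RNA per cell cannot be told apart. The call held in all 22 alternative settings in both lines. Between the lines, KO over wild type, it was 0.52 ± 0.25 without copper (adjusted p = 0.13) and -0.74 ± 0.28 with it (adjusted p = 0.093). The copper effect in KO minus that in wild type was -1.26 ± 0.37 (adjusted p = 0.061), a difference that was called with DESeq2 (-1.34, adjusted p = 0.020) and without untreated KO replicate 3 (-1.55, adjusted p = 0.00055). Without that replicate SULT2A1 was also called higher in KO untreated (0.75, adjusted p = 0.0037) and lower in KO in copper (-0.80, adjusted p = 0.014). Without the libraries that stood apart KO against wild type was 0.03 untreated (adjusted p = 0.90) and -0.77 in copper (adjusted p = 0.0074).

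The 250 bases before the SULT2A1 start (RefSeq, GRCh38.p14, chr19:47886316-47886565, minus strand) are shown because this gene had the highest level among the members and fell in both lines. Capitals mark nuclear receptor half-sites, which are AGGTCA with its variants written as AGTTCA and also GGGTCA, on either strand.
SULT2A1: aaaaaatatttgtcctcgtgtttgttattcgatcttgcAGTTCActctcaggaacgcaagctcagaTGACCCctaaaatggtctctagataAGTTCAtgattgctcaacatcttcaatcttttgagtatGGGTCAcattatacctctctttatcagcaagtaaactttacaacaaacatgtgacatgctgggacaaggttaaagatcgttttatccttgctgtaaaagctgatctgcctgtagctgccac
This window held 4 half-sites. Of 35116 promoter windows of the same length 29.1% held at least 1, and 0.174% held at least 4. A match describes letters and not binding. Windows were read from the RefSeq table for 8 of the 10 members, 9 windows in all. The windows of CYP7A1 and CES1 were not analysed here.

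NR1H4 (ENSG00000012504.9), the bile acid receptor FXR, was low with copper in both lines. It was at 2.14, 3.35 and 1.99 CPM in copper-treated KO cells and at 30.5, 16.4 and 18.6 CPM in untreated KO cells. Wild type cells had 1.07, 4.79 and 5.81 CPM with copper and 12.4, 15.7 and 12.9 CPM untreated. Groups did not overlap between treatments in either line, although the copper-treated wild type libraries rested on only 2, 11 and 15 counts. NR1H4 fell with copper in KO cells (log2 fold change -3.00 ± 0.46, adjusted p = 0.00064) and 3.31-fold in wild type cells (-1.73 ± 0.43, adjusted p = 0.019). The wild type call ended without any of untreated wild type replicates 1, 2 and 3 or copper-treated wild type replicate 2 (adjusted p up to 0.074). The KO to wild type difference was 0.55 ± 0.38 without copper (adjusted p = 0.27) and -0.72 ± 0.52 with it (adjusted p = 0.38), the second of which was called without the libraries that stood apart (-1.18, adjusted p = 0.029). The difference of the copper effects was -1.27 ± 0.64 (adjusted p = 0.18).

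The NR1H4 window (RefSeq, GRCh38.p14, chr12:100503110-100503359, plus strand) is set beside that of SULT2A1 because both genes fell with copper in both lines.
NR1H4: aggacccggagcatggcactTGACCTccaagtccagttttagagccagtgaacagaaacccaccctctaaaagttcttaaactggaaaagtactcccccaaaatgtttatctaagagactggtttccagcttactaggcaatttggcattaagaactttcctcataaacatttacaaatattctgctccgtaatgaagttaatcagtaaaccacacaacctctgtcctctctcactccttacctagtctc
It held 1 half-site, AGGTCA on the opposite strand. It also held GTTAAT, an HNF1 half-site found in 6.23% of windows, 53 to 48 bases before the start, and GAANNTTC, a heat shock element pair found in 5.78% of windows, 98 to 91 bases before it.

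NR1I2 (ENSG00000144852.12), the drug receptor PXR, was higher in untreated KO cells than in untreated wild type cells, and it rose with copper in the wild type line. It was at 11.0, 9.21 and 6.37 CPM in copper-treated KO cells and at 12.5, 18.4 and 9.76 CPM in untreated KO cells. Wild type libraries were at 6.40, 6.97 and 5.42 CPM with copper and 2.11, 1.57 and 1.40 CPM untreated. The untreated wild type libraries, with 8, 6 and 5 counts, were the lowest of all 12. NR1I2 was 6.89-fold higher in KO than in wild type untreated (2.78 ± 0.39, adjusted p = 0.00061) and rose 3.67-fold with copper in wild type cells (1.88 ± 0.40, adjusted p = 0.0098). Both calls held in all 22 alternatives. In KO cells its copper effect was -0.43 ± 0.34 (adjusted p = 0.39), and KO against wild type in copper was 0.48 ± 0.35 (adjusted p = 0.39). The copper effects of the lines differed by -2.30 ± 0.53 (adjusted p = 0.039), where 4.93% of all tested genes were called, 1.26% higher and 3.67% lower. That call ended on leaving out any 1 of 10 libraries (adjusted p up to 0.11), every library but copper-treated wild type replicate 3 and untreated KO replicate 3. Without the libraries that stood apart it was -1.85 (adjusted p = 0.041).

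NR1I3 (ENSG00000143257.7), the receptor CAR, was near the detection limit. It had 1, 1 and 0 counts in copper-treated KO cells and 1, 2 and 7 counts in untreated KO cells, against 0 in all 6 wild type libraries. Summed over the group, untreated KO cells had 10 counts (1.76 CPM, 95% counting interval 0.842 to 3.23). This was 6.54 times a floor of 3 counts over the group in untreated wild type cells (0.268 CPM), with the 10 counts taken as exact. The upper counting limit in untreated wild type cells was 0.330 CPM. Copper-treated KO cells had 2 counts over the group (0.259 CPM), under their floor of 0.389 CPM. Their ratio to untreated KO cells was 0.148 (95% counting interval 0.0157 to 0.694), and such intervals cover counting error only. Of the 10 counts in untreated KO cells 7 came from replicate 3, the deepest library of that group. As CPM, untreated KO replicates 1, 2 and 3 were at 0.693, 2.05 and 2.14.

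CYP3A5 (ENSG00000106258.9), a steroid- and drug-oxidising P450, had its group means in the same order as NR1I2. It was at 13.5, 12.6 and 15.1 CPM in copper-treated KO cells and at 13.9, 31.7 and 9.76 CPM in untreated KO cells. The wild type line was at 5.34, 6.97 and 4.26 CPM with copper and 2.37, 1.04 and 1.12 CPM untreated. All 6 KO libraries were above all 6 wild type libraries. CYP3A5 was 10.3-fold higher in KO than in wild type untreated (3.36 ± 0.51, adjusted p = 0.0010), a call that held in all 22 alternatives and was 2.77 without untreated KO replicate 2 and 2.45 without the libraries that stood apart. In copper the KO cells were at 1.28 ± 0.45 (adjusted p = 0.079), which was called when only the copper-treated groups were fitted (1.23, adjusted p = 0.012) and without the libraries that stood apart (1.22, adjusted p = 0.0036). With copper CYP3A5 rose 3.60-fold in wild type cells (1.85 ± 0.54, adjusted p = 0.039). This call ended without any 1 of the wild type or copper-treated KO libraries (9 of 12 leave-outs, adjusted p up to 0.14). In KO cells the copper effect was -0.23 ± 0.42 (adjusted p = 0.70), and 0.67 without the libraries that stood apart (adjusted p = 0.13). The difference of the copper effects was -2.08 ± 0.69 (adjusted p = 0.078), and was called with DESeq2 (-2.22, adjusted p = 0.033).

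The CYP3A5 window (RefSeq, GRCh38.p14, chr7:99679997-99680246, minus strand) is shown because CYP3A5 is a known target of PXR, whose gene is also a member.
CYP3A5: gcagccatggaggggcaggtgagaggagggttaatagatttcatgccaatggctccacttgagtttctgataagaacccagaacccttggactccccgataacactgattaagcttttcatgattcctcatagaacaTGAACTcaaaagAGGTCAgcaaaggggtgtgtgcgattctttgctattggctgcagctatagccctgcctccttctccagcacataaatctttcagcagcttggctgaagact
Its 2 half-sites lie 113 to 96 bases before the start as the everted repeat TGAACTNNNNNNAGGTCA. In all 3 of the 35116 windows held it (0.00854%), this one among them, so that share is not independent of CYP3A5. GTTAAT stands 221 to 216 bases before the start. The everted repeat was counted in this exact spelling, and other everted pairs of the half-sites were not counted. Binding was not measured. The near relatives of CYP3A5 were barely counted. CYP3A4, the main drug-oxidising P450 of adult liver, was at 0 in all 12 libraries, and the fetal form CYP3A7 had 1 count in copper-treated KO, 1 in untreated KO, 3 in copper-treated wild type and 0 in untreated wild type cells.

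CES1 (ENSG00000198848.8), the liver carboxylesterase that hydrolyses ester drugs, varied widely between replicates. It was at 2.14, 11.3 and 5.18 CPM in copper-treated KO cells and at 24.9, 34.8 and 7.32 CPM in untreated KO cells. Wild type values were 29.4, 12.2 and 7.36 CPM with copper and 3.43, 1.83 and 4.21 CPM untreated. The highest 3 values were those of the libraries that stood apart, and the KO groups overlapped. CES1 was called higher in KO than in wild type untreated (2.62 ± 0.74, adjusted p = 0.019) and higher with copper in wild type cells (2.37 ± 0.73, adjusted p = 0.046). Its copper effect was -1.68 ± 0.72 in KO cells (adjusted p = 0.087), and the effects of the lines differed by -4.05 ± 1.02 (adjusted p = 0.045). Without the libraries that stood apart KO against wild type untreated was 1.01 (adjusted p = 0.21), the copper effect in KO -0.10 (adjusted p = 0.91) and the difference -1.78 (adjusted p = 0.16), while the copper effect in wild type was 1.67 and still called (adjusted p = 0.0097). Leaving out single libraries ended the wild type copper call without untreated wild type replicates 1, 2 or 3, copper-treated wild type replicates 1 (1.62, adjusted p = 0.21) or 2, or copper-treated KO replicate 3. It ended the untreated comparison of the lines without untreated wild type replicates 1 or 2 or untreated KO replicates 1 or 2 (adjusted p up to 0.074), and the difference of copper effects in 10 of 12 leave-outs. With limma voom none of the 3 was called (adjusted p = 0.090, 0.058 and 0.075 in this order). CES1 has a near-identical pseudogene copy, so its counts are uncertain where the counting could split reads between them.

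CES2, the carboxylesterase best known from intestine, was more abundant than CES1 and had its high values in untreated KO cells. It was at 151, 161 and 157 CPM in copper-treated KO cells and at 997, 887 and 453 CPM in untreated KO cells. In the wild type line there were 183, 129 and 135 CPM with copper and 219, 210.2 and 226 CPM untreated. All 3 untreated KO libraries were above the other 9. CES2 fell with copper in KO cells (-2.22 ± 0.29, adjusted p = 0.00027, and -1.36 without the libraries that stood apart) and was higher in KO than in wild type untreated (1.73 ± 0.29, adjusted p = 0.0016, and 0.85 without them). In wild type cells its copper effect was -0.52 ± 0.28 (adjusted p = 0.24).

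GSTA1 (ENSG00000243955.1), an alpha-class glutathione transferase abundant in hepatocytes, was high in untreated KO cells alone among the 4 groups. It was at 2.85, 3.35 and 3.58 CPM in copper-treated KO cells and at 31.9, 25.6 and 24.1 CPM in untreated KO cells. Wild type levels were 1.60, 2.61 and 0.387 CPM with copper and 1.05, 2.35 and 3.65 CPM untreated. The 3 untreated KO libraries, which include replicate 3, were close together and far above the other 9. GSTA1 was 10.5-fold higher in KO than in wild type untreated (3.39 ± 0.44, adjusted p = 0.00040) and fell 7.60-fold with copper in KO cells (-2.93 ± 0.44, adjusted p = 0.00057), and both calls held in all 22 alternatives. Its copper effect in wild type cells was -0.61 ± 0.58 (adjusted p = 0.52), and KO against wild type in copper was 1.07 ± 0.58 (adjusted p = 0.25). The copper effects differed by -2.32 ± 0.77 (adjusted p = 0.080), called with DESeq2 (-2.40, adjusted p = 0.026).

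GSTA2, a near-identical neighbour, had 12 counts in copper-treated KO, 26 in untreated KO, 3 in copper-treated wild type and 5 in untreated wild type cells. Its ratio of untreated KO to untreated wild type cells was 10.2 (95% counting interval 3.86 to 34.0). Reads may be split between these copies, so both genes are uncertain. The GSTA1 window (RefSeq, GRCh38.p14, chr6:52803817-52804066, minus strand) is shown beside the others because it held none of the 3 half-sites, which says nothing of regulation elsewhere.
GSTA1: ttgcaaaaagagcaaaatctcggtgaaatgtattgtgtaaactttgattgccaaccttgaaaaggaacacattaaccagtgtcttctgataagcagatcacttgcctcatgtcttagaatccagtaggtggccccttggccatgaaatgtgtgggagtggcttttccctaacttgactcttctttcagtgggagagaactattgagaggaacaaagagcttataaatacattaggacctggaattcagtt
It held GTTAAT on the opposite strand 180 to 175 bases before the start and TATAAA, the TATA box letters found in 10.7% of windows, 30 to 25 bases before it.

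CYP27A1 (ENSG00000135929.4), the mitochondrial sterol hydroxylase of the alternative bile acid pathway, was steady in untreated wild type cells and lower in copper-treated KO than in copper-treated wild type cells. It was at 16.7, 23.4 and 17.9 CPM in copper-treated KO cells and at 16.6, 26.6 and 51.9 CPM in untreated KO cells. Wild type replicates had 27.8, 41.4 and 58.1 CPM with copper and 54.6, 54.1 and 53.1 CPM untreated. The libraries that stood apart were the lowest 2 of untreated KO and the lowest of copper-treated wild type cells. In copper CYP27A1 was 2.25-fold lower in KO than in wild type cells (-1.17 ± 0.35, adjusted p = 0.047). That call ended in 8 of 12 leave-outs (adjusted p up to 0.17), those of any untreated wild type or copper-treated KO library and of copper-treated wild type replicates 2 and 3, and under scaling by library totals alone. With copper it was at -0.32 ± 0.34 in wild type cells (adjusted p = 0.57) and at -0.62 ± 0.36 in KO cells (adjusted p = 0.20). Without the libraries that stood apart the copper effect in KO was -1.25 (adjusted p = 8.5e-06) and the difference of the copper effects -1.20 (adjusted p = 0.0025). KO against wild type untreated was -0.86 ± 0.35 (adjusted p = 0.073), -1.40 without untreated KO replicate 3 (adjusted p = 0.0011) and -0.26 without the libraries that stood apart (adjusted p = 0.31).

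CYP7A1 (ENSG00000167910.3), the rate-limiting enzyme of bile acid synthesis, was counted in untreated KO cells alone. Untreated KO replicates 1, 2 and 3 had 4, 0 and 6 counts, and the other 9 libraries had 0. Over the group the 10 counts (1.76 CPM, 95% counting interval 0.842 to 3.23) were 6.54 times the floor of 3 counts over the group in untreated wild type cells. They were 4.51 times that floor in copper-treated KO cells. These folds take the 10 counts as exact. The upper counting limits were 0.330 CPM in untreated wild type and 0.479 CPM in copper-treated KO cells. CYP8B1, the hydroxylase that sets the share of cholic acid, had 1, 1 and 1 counts in copper-treated KO, 1, 0 and 22 in untreated KO, 1, 2 and 1 in copper-treated wild type and 13, 9 and 11 in untreated wild type cells. Its ratio of copper-treated to untreated cells was 0.201 in wild type (95% counting interval 0.0517 to 0.565) and 0.0964 in KO (0.0185 to 0.319), and 22 of the 23 counts in untreated KO cells came from replicate 3.

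ABCB11 (ENSG00000073734.8), the bile salt export pump BSEP, had 1, 3 and 0 counts in copper-treated KO cells and 0 in the other 9 libraries. Its 4 counts (0.519 CPM) are under the floor of untreated KO cells (0.527 CPM), so no fold is given.

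Partners of these receptors and of the bile acid feedback loop were followed beside the members. RXRA, the common partner of PXR, CAR and FXR, was at 32.4, 31.8 and 37.8 CPM in copper-treated KO cells and at 147, 173 and 122 CPM in untreated KO cells. Wild type cells had 132, 103 and 87.5 CPM with copper and 163, 158 and 157 CPM untreated. The copper-treated KO libraries were the lowest of all 12. RXRA fell with copper in KO cells (-2.00 ± 0.22, adjusted p = 8.3e-05) and was lower in KO than in wild type in copper (-1.70 ± 0.22, adjusted p = 0.00059), calls that held in all alternatives run. In wild type cells its copper effect was -0.54 ± 0.21 (adjusted p = 0.11).

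KLB, the coreceptor of FGF19, was at 6.05, 4.61 and 8.36 CPM in copper-treated KO cells and at 154, 183 and 119.9 CPM in untreated KO cells. Wild type libraries were at 52.3, 47.1 and 43.8 CPM with copper and 127, 110.5 and 118 CPM untreated. It was lower with copper in both lines without overlap. KLB fell by 4.47 ± 0.27 on the log2 scale in KO cells (adjusted p = 1.8e-06) and by 1.28 ± 0.23 in wild type cells (adjusted p = 0.0036), and the copper effects differed by -3.18 ± 0.35 (adjusted p = 0.0026). Its receptor FGFR4 fell with copper in wild type cells (-1.40 ± 0.39, adjusted p = 0.032) and was at -0.45 ± 0.40 in KO cells (adjusted p = 0.39). The FGFR4 call ended without any 1 wild type library or copper-treated KO replicate 3 (adjusted p up to 0.11).

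NR0B2, the repressor SHP, was at 53.8, 44.0 and 51.8 CPM in copper-treated KO cells and at 12.5, 6.14 and 57.7 CPM in untreated KO cells. The wild type line was at 32.0, 69.3 and 103 CPM with copper and 171, 171 and 172 CPM untreated. The copper effect of NR0B2 in wild type cells was not called in the main fit. It ran from -1.75 to -0.92 over 22 alternatives and was called in 4 of them. The lowest 3 CPM values of NR0B2 were those of the libraries that stood apart. NR0B2 was lower in KO than in wild type untreated (-2.79 ± 0.58, adjusted p = 0.0046, -1.77 without those libraries and -4.17 without untreated KO replicate 3). Its copper effect was 1.01 ± 0.56 in KO cells (adjusted p = 0.18), -0.03 without the libraries that stood apart (adjusted p = 0.92) and 2.37 without untreated KO replicate 3 (adjusted p = 0.00056). ABCB4, the canalicular phospholipid transporter, was at 9.62, 8.37 and 8.36 CPM in copper-treated KO cells and at 121, 119.8 and 33.3 CPM in untreated KO cells, and fell with copper in KO cells (-3.26 ± 0.45, adjusted p = 0.00036, and -1.73 without those libraries). In wild type cells it had 36.3, 25.7 and 24.4 CPM with copper and 42.2, 42.0 and 46.0 CPM untreated (-0.57 ± 0.40, adjusted p = 0.37). NR1H3, the oxysterol receptor LXR alpha, fell with copper in KO cells (-1.38 ± 0.29, adjusted p = 0.0041) and was at -0.07 ± 0.28 in wild type cells (adjusted p = 0.90).

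**Figure D3:**
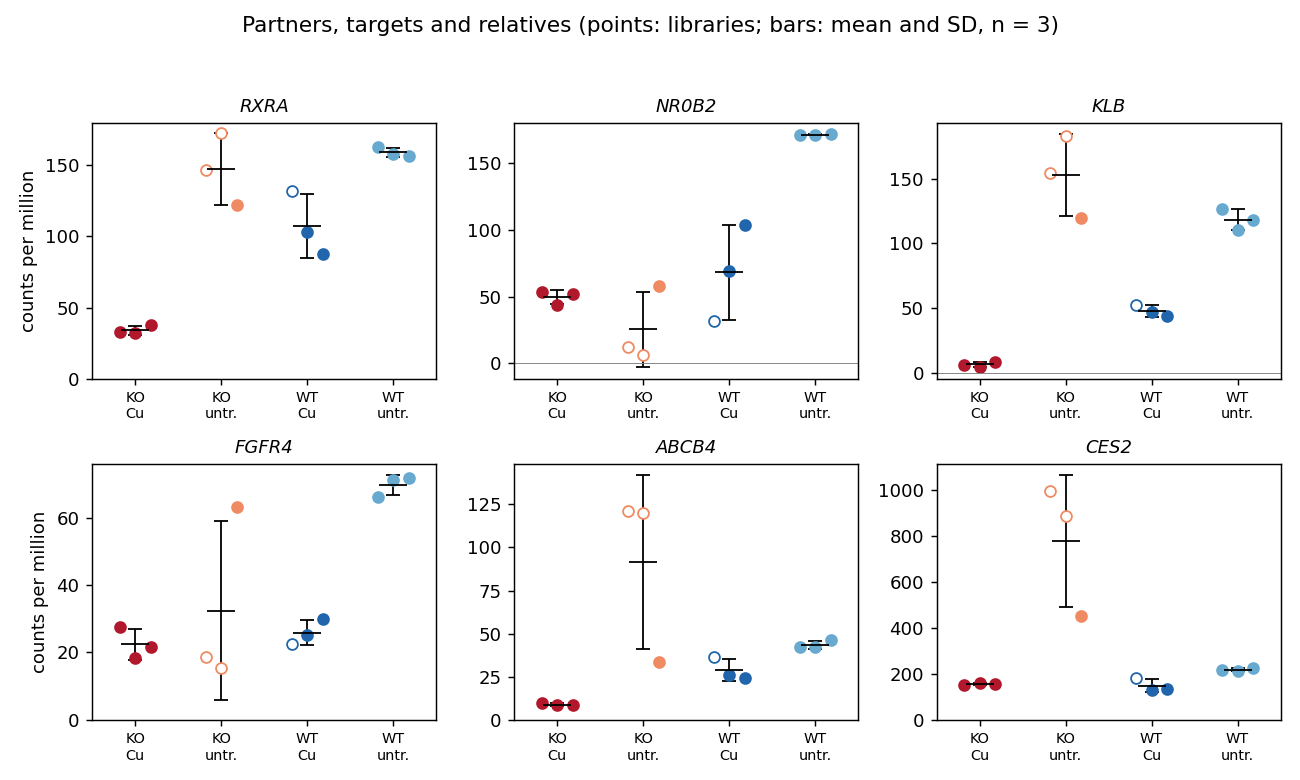
CPM of 6 partner genes (RXRA, NR0B2, KLB, FGFR4, ABCB4, CES2) in each library, on a linear axis per gene, with groups and symbols as in the plot of the 10 genes. RXRA and KLB have their lowest 3 values in copper-treated KO cells, and the open circles are the lowest 3 values of NR0B2.

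The pathway around the members was read from 6 lists of 173 symbols, of which 172 were matched and 111 were tested. The 10 members are on these lists. The lists were chosen with earlier results of these data known, so their shares are not independent evidence about these genes. Over the lists together 13 genes rose with copper in KO cells (11.7%, against 15.2% of all tested genes) and 37 fell (33.3%, against 18.5%). With copper in wild type cells 11 rose (9.91%, against 8.23%) and 24 fell (21.6%, against 6.68%). Between the untreated lines 30 were higher in KO cells (27.0%, against 17.9%) and 17 lower (15.3%, against 14.0%), and in copper 8 were higher (7.21%, against 5.77%) and 11 lower (9.91%, against 8.03%). The shares of genes that fell with copper and of genes higher in untreated KO cells were above those of all genes, and the other shares were near them or, for genes that rose in KO cells, below. No test of a list against other genes was made, and the medians of all tested genes, given above, lie between -0.03 and 0.05.

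Among nuclear receptors and their cofactors 10 of 19 tested genes fell and 0 rose with copper in KO cells (52.6% lower, against 18.5% of all tested genes; median log2 fold change -0.87). In wild type cells 7 fell (36.8%, against 6.68%) and 1, NR1I2, rose (median -0.65). Examples are PPARA, the fatty acid receptor, at -1.83 ± 0.27 in KO cells (adjusted p = 0.00057) and the coactivator PPARGC1A at -2.36 ± 0.44 in KO (adjusted p = 0.0019) and -2.11 ± 0.34 in wild type cells (adjusted p = 0.0021). Between the untreated lines 3 were higher in KO cells (15.8%, near the 17.9% of all genes) and 5 lower (26.3%, against 14.0%), with the orphan receptor NR2F1 at -1.90 ± 0.27 (adjusted p = 0.00060). In copper 4 were lower in KO cells (21.1%, against 8.03%) and 0 higher, with PPARA at -2.30 ± 0.27 (adjusted p = 0.00032).

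Of 10 tested genes of bile acid synthesis and conjugation 4 fell with copper in KO cells (40.0%, against 18.5% of all tested genes) and 1 rose, where 15.2% of all genes did (median -0.47). The wild type line had 3 that fell (30.0%, against 6.68%) and 0 that rose (median -0.41). SLC27A2, which activates bile acid precursors with coenzyme A, fell in both (-1.41 ± 0.29 in KO, adjusted p = 0.0032; -2.40 ± 0.29 in wild type, adjusted p = 0.00035). AKR1D1, the reductase that shapes the steroid ring of bile acids, fell likewise (-1.63 ± 0.36 in KO, adjusted p = 0.0056; -2.29 ± 0.46 in wild type, adjusted p = 0.0067). SLC27A5, the bile acid ligase, fell in KO cells (-2.77 ± 0.50, adjusted p = 0.0016, and -1.34 without the libraries that stood apart). Between the untreated lines 3 were higher in KO cells (30.0%, against 17.9%), AKR1D1 (1.27 ± 0.35, adjusted p = 0.017) and the conjugating enzyme BAAT (1.004 ± 0.32, adjusted p = 0.032) among them, and 2 were lower (20.0%, against 14.0%). The BAAT call ended without the libraries that stood apart (0.57, adjusted p = 0.19), and on leaving out untreated wild type replicates 1 or 2 or untreated KO replicates 1 or 2 (adjusted p up to 0.13). In copper AKR1D1 was higher in KO cells (1.94 ± 0.48, adjusted p = 0.020) and CYP27A1 lower. The untreated AKR1D1 call ended without untreated wild type replicate 1 (adjusted p = 0.082) or untreated KO replicate 3 (0.76, adjusted p = 0.062), and was 1.87 without the libraries that stood apart, where its copper effect in KO cells was -2.24. The AKR1D1 call in copper ended without copper-treated wild type replicates 1 or 2 or copper-treated KO replicates 1 or 3 (adjusted p up to 0.074).

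Of 13 tested genes of bile acid transport and feedback 5 fell with copper in KO cells (38.5%, against 18.5% of all tested genes) and 0 rose (median -0.92). With copper in wild type cells 4 fell (30.8%, against 6.68%) and 1 rose (7.69%, near the 8.23% of all genes; median -0.57). Besides KLB and ABCB4, the uptake carrier SLCO2B1 fell in KO (-2.24 ± 0.36, adjusted p = 0.00084) and in wild type cells (-1.84 ± 0.43, adjusted p = 0.014, a call that ended without copper-treated wild type replicates 1 or 2, adjusted p up to 0.061). ABCG8, part of the sterol exporter, fell in KO cells (-2.49 ± 0.51, adjusted p = 0.0033, and -1.70 without the libraries that stood apart). In untreated KO cells 5 were higher than in wild type (38.5%, against 17.9%) and 2 lower (15.4%, near the 14.0% of all genes; median 0.85), with SLCO2B1 at 1.64 ± 0.33 (adjusted p = 0.0044) and the basolateral exporter ABCC3 at 0.85 ± 0.19 (adjusted p = 0.0061). SLC51A, a subunit of the basolateral bile acid exporter, was lower in KO cells both untreated (-1.97 ± 0.51, adjusted p = 0.013) and in copper (-2.93 ± 0.60, adjusted p = 0.0076, and -3.57 without copper-treated KO replicate 1).

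Of 24 tested phase I enzymes 10 fell with copper in KO cells (41.7%, against 18.5% of all tested genes) and 2 rose (8.33%, against 15.2%; median -0.95). Among them 5 fell in wild type cells (20.8%, against 6.68%) and 2, CYP3A5 and CES1, rose (8.33%, near the 8.23% of all genes; median -0.60). FMO5, a flavin monooxygenase, fell in KO (-3.42 ± 0.34, adjusted p = 4.2e-05, and -2.80 without the libraries that stood apart) and in wild type cells (-1.67 ± 0.29, adjusted p = 0.0027), and the soluble epoxide hydrolase EPHX2 fell in KO (-1.86 ± 0.20, adjusted p = 7.0e-05) and in wild type cells (-1.09 ± 0.20, adjusted p = 0.0034). ADH6, an alcohol dehydrogenase, fell in KO cells (-3.24 ± 0.37, adjusted p = 9.4e-05, and -2.12 without the libraries that stood apart). In untreated KO cells 5 were higher than in wild type (20.8%, near the 17.9% of all genes) and 1 lower, with the microsomal epoxide hydrolase EPHX1 at 2.23 ± 0.26 (adjusted p = 0.00023). In copper 3 were higher in KO cells (12.5%, against 5.77%) and 1 lower, with FMO5 at -2.67 ± 0.34 (adjusted p = 0.00059) and CYP1A1, the classic target of the aryl hydrocarbon receptor, at 2.34 ± 0.66 (adjusted p = 0.036). The CYP1A1 call ended without any 1 wild type or copper-treated KO library (9 of 12 leave-outs, adjusted p up to 0.12).

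Of 26 tested phase II genes 7 fell with copper in KO cells (26.9%, against 18.5% of all tested genes) and 1 rose (3.85%, against 15.2%; median -0.43). Wild type cells had 5 that fell (19.2%, against 6.68%) and 2 that rose (7.69%, near the 8.23% of all genes; median -0.46). In untreated KO cells 8 were higher than in wild type (30.8%, against 17.9%) and 4 lower (15.4%, near the 14.0% of all genes; median 0.38). The sulfotransferase SULT1C2 was higher in KO cells untreated (2.298 ± 0.45, adjusted p = 0.0035) and in copper (2.96 ± 0.50, adjusted p = 0.0028), and UGT2B4, a glucuronosyltransferase of bile acids, was lower (-4.77 ± 0.88, adjusted p = 0.0028, and -2.89 ± 0.72, adjusted p = 0.020). UGT2B4 had 4, 1, 28 and 61 counts summed over copper-treated KO, untreated KO, copper-treated wild type and untreated wild type cells. Its value was -6.80 untreated without untreated KO replicate 3 and -4.17 in copper without copper-treated KO replicate 2, and the call in copper ended without copper-treated wild type replicate 2 or copper-treated KO replicates 1 or 3 (adjusted p up to 0.099). Copies of the SULT1A, UGT1A and AKR1C families may share reads and are uncertain.

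On the list of the aryl hydrocarbon and oxidant response most called genes rose with copper. Of its 19 tested genes 9 rose in KO cells (47.4%, against 15.2% of all tested genes) and 1 fell (5.26%, against 18.5%; median 1.04). In wild type cells 5 rose (26.3%, against 8.23%) and 0 fell (median 0.68). The thioredoxin reductase TXNRD1 rose by 2.21 ± 0.19 in KO (adjusted p = 1.3e-05) and 2.52 ± 0.19 in wild type cells (adjusted p = 1.1e-05). GCLM, a subunit of the enzyme that limits glutathione synthesis, rose by 2.29 ± 0.29 in KO (adjusted p = 0.00021, and 2.95 without the libraries that stood apart) and 3.51 ± 0.31 in wild type cells (adjusted p = 3.3e-05). In untreated KO cells 6 genes of the list were higher than in wild type (31.6%, against 17.9%) and 3 lower (15.8%, near the 14.0% of all genes; median -0.16), with ARNT, the partner of the aryl hydrocarbon receptor, at -1.36 ± 0.24 (adjusted p = 0.0021).

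**Figure D4:**
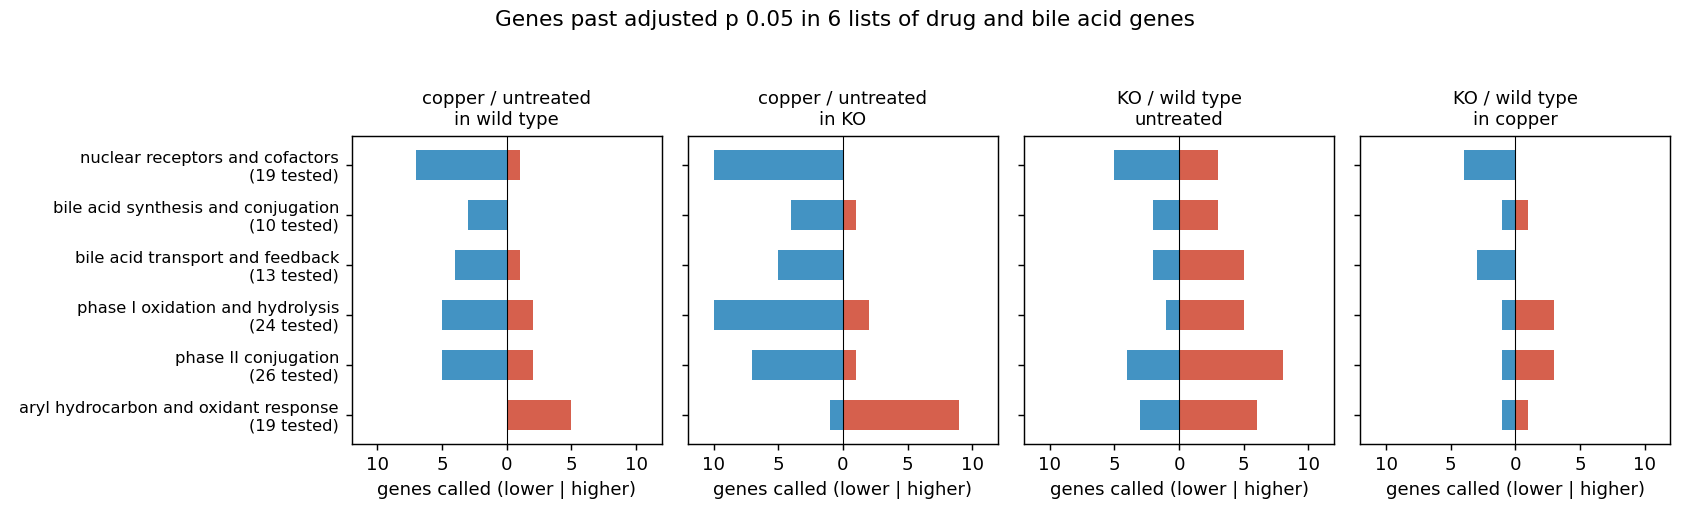
Number of tested genes on each of the 6 lists called higher (right) or lower (left) at an adjusted p under 0.05, in each comparison. With copper in KO cells the lists of nuclear receptors and of phase I enzymes each have 10 genes to the left, and the oxidant response list has 9 genes to the right.

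The genes whose pattern over the 12 libraries was most like that of a member were ranked by the root mean square difference of centred log2 CPM, over 7975 genes averaging at least 10 CPM. For SULT2A1, whose own pattern had a root mean square of 1.58, they were LRRC3 (0.288), DNMT3L-AS1 (0.431) and RAB11FIP4 (0.454). For CYP27A1 (own 0.683) they were DRAM1 (0.157), CXCL16 (0.247) and FGL1 (0.265). For CES1 (own 1.21) they were SCARNA22 (0.482), MIR663AHG (0.538) and FTH1P16 (0.539). The sources used here do not state the strand setting of the counting, so reads of an antisense gene cannot be told from those of its partner.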

How the data were processed

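The authors deposited raw counts of reads per gene for each of 12 HepG2 libraries, with no normalization. The labels' protocols describe QuantSeq 3′ mRNA libraries from 100 ng of RNA, with fragments of 300 bp and single-end NextSeq500 reads of 75 bp. STAR 2.3.0, HTSeq and the build hg19 are named in the submitters' processing notes. The sources used here give no annotation release, strand setting or filter. Without molecular identifiers, PCR copies cannot be told from separate molecules.

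Symbols from gene name tables and GENCODE v29 named 45776 of 47634 IDs, which held 99.51% of counts. Counts were tested with edgeR 4.0.16 (R 4.3.3): filterByExpr left 11051 genes, TMM scaling, a robust quasi-likelihood fit of 4 group means over 12 libraries (biological coefficient of variation 29.1%), 5 comparisons, Benjamini-Hochberg adjustment over 11051 genes and a threshold of 0.05. The SE is the size of the log2 fold change over the square root of F. Ratios of low counts have exact intervals for counting error at 95%. Each comparison was repeated under up to 22 alternatives, 12 of them leaving out 1 library, with limma 3.58.1 voom and DESeq2 1.42.0 among the others. Counts of the 11051 genes were simulated with far fewer genes changed per comparison than were called in the data. There 4-fold changes were recovered in 69% to 71% of cases for the pairwise comparisons and 35% for the difference of copper effects. Changes of 2-fold were recovered in 8% to 14% and 2% of cases, in this order. With so few genes changed the adjusted threshold is stricter, so these rates do not carry over to the data. Promoter windows came from RefSeq (GRCh38.p14), and 11 motifs were searched on both strands.

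The members and lists were chosen with earlier results of these data known. Named were the 10 members, near copies and partners whatever their values (CYP3A4, CYP3A7, GSTA2, CES2, NR0B2, CYP8B1, ABCB4, NR1H3, RXRA), up to 4 genes per list and comparison with the smallest adjusted p, and 3 genes of like pattern for each of SULT2A1 and the 2 other members of highest mean CPM. FGFR4 and KLB were named by the list rule.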

Additional observations from a re-analysis of the deposited data

Results flagged for a closer look

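The copper effect differed between the lines, by the edgeR test of the difference (KO minus wild type, log2), for 2 members and for 9 other genes on the lists. Of the members NR1I2 was at -2.30 ± 0.53 SE (adjusted p = 0.039) and CES1 at -4.05 ± 1.02 (adjusted p = 0.045). KLB was at -3.18 ± 0.35 (adjusted p = 0.0026), a difference that was called in every alternative run. The other 10 differences each lost their call in 10 of 12 leave-outs of 1 library and with the replicate number as a block, and all but RXRA lost it with limma voom. RXRA was at -1.46 ± 0.30 (adjusted p = 0.034), ABCB4 at -2.69 ± 0.60 (adjusted p = 0.038) and SLC27A5 at -2.78 ± 0.67 (adjusted p = 0.042). Among enzymes ADH6 was at -2.35 ± 0.49 (adjusted p = 0.034), CES2 at -1.69 ± 0.40 (adjusted p = 0.041), GSTZ1 at -3.41 ± 0.81 (adjusted p = 0.041) and FMO5 at -1.74 ± 0.44 (adjusted p = 0.045). SCP2, a sterol carrier whose thiolase form shortens bile acid side chains, was at 1.80 ± 0.45 (adjusted p = 0.045). Without the libraries that stood apart CES1 was at -1.78 (adjusted p = 0.16), GSTZ1 at -0.59 (adjusted p = 0.066) and FMO5 at -0.92 (adjusted p = 0.10), no longer called. There ABCB4 was at -1.001, CES2 at -0.69, SLC27A5 at -1.32, ADH6 at -1.28, SCP2 at 1.20 and RXRA at -0.98, smaller and still called. All these differences rest on the untreated KO libraries, which agreed least among themselves.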

How the results depend on the processing

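Calls of single members that held in all alternatives run were SULT2A1 with copper in both lines, NR1H4 and GSTA1 with copper in KO, GSTA1, NR1I2 and CYP3A5 for KO against wild type untreated, and NR1I2 with copper in wild type. Over named genes and alternatives 2574 values kept their direction and side of the threshold, 279 lost the call, 41 gained one and 9 reversed, and for the counts of the lists 461 stayed within 1.5 times, 129 were smaller and 64 larger. The cause was not tested unless the setting itself removes samples or genes. Of all genes, calls with copper in wild type were 1648, and 3044 with only the groups compared in the fit and 4784 without the libraries that stood apart. With copper in KO they were 3721, and 1853 with only the groups compared. Copper thus gave more calls in KO than in wild type in the main fit, and fewer with only the groups compared. KO against wild type untreated gave 3521, and 1421 with only the groups compared. In copper it gave 1525, 2694 with only the groups compared and 4527 without the libraries that stood apart. The difference of copper effects gave 545, 960 with library totals, 2366 with no filter, 139 with voom, 1831 with DESeq2 and 1050 without the libraries that stood apart, and has no value with only the groups compared. Member calls with copper in KO were 3, and 5 with no filter. KO against wild type untreated gave 4, and 7 with no filter, where NR1I3 and CYP7A1 entered and CYP27A1, lower in KO, was also called. In copper it gave 1, 0 with library totals, 2 with no filter, 2 with only the groups compared and 4 without the libraries that stood apart. For the difference it was 2, 5 with no filter, 0 with voom and 5 with DESeq2.

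Leaving out 1 library gave, with copper in wild type, 734 to 3779 calls over all genes and 2 to 5 over members. With copper in KO it gave 2372 to 6635 and 3 to 4, and for KO against wild type untreated 2058 to 6738 and 3 to 6. In copper it gave 675 to 3561 and 0 to 3, and for the difference 13 to 5882 and 0 to 6. The highest of each of the ranges over all genes came without untreated KO replicate 3.

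Reversed, all uncalled, were the copper effect in KO of NR1I2 (0.049 without the libraries that stood apart), of CYP3A5 (0.11 with voom, 0.67 without those libraries, -0.64 to 0.37 on leaving out 1 library) and of NR0B2 (-0.029 without those libraries). So were the difference of copper effects of CYP27A1 (-0.60 to 0.17 on leaving out 1 library) and the copper effect in wild type of NR1H3 (0.00092 with upper quartile factors, -0.26 to 0.15 on leaving out 1 library).

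Scaling by library totals moved the median of all genes to 0.12 from -0.02 for KO against wild type untreated and to -0.12 from 0.01 with copper in KO. It moved the share of higher calls to 69.4% from 56.1%, to 34.2% from 45.0% and, for the difference, to 13.1% from 25.5%.

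Replicate numbers did not pair the libraries: same-numbered libraries correlated in their deviations at -0.22 to 0.61, over 0.1 in 2 of 18 pairs. With the replicate number as a block the difference of copper effects gave 113 calls over all genes and 0 over members, and CES1 with copper in wild type was at 2.23 (adjusted p = 0.062).

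Depth limits NR1I3, CYP7A1 and ABCB11 to counts, and changes of 2-fold in the tested members were mostly below what the fit recovers.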

Other observations

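Markers of other cell types were summed in each library. The cholangiocyte sum of 4 markers was at 632 to 679 CPM in copper-treated KO, 791 to 1160.1 CPM in untreated KO, 548 to 670 CPM in copper-treated wild type and 511 to 545 CPM in untreated wild type cells. The leukocyte sum, in which PTPRC was at or near 0 and LYZ made up most, was at 186 to 225 CPM in copper-treated KO, 209 to 428 CPM in untreated KO, 288 to 845 CPM in copper-treated wild type and 1348 to 1469 CPM in untreated wild type cells. The fibroblast or stellate sum was between 2.77 and 56.9 CPM in all libraries, and the intestine sum between 31.7 and 134.8 CPM.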
